A study of Mus musculus with 8 samples.

Results

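Ribosome biogenesis genes and Myc are a set of 39 mouse genes: the transcription factor Myc and 38 factors of the nucleolus that transcribe, cut, modify or assemble ribosomal RNA. They were listed by name rather than by a measured change, though earlier results of these data were known when they were chosen. A gene was kept when at least 10 expected counts were found in at least 2 libraries. All 39 listed genes passed, each with at least 88 counts in every library, out of 14063 genes tested and 55416 gene IDs in the tables.

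Ribosomes are built in the nucleolus, where RNA polymerase I copies the ribosomal DNA into a long precursor RNA. Small nucleolar ribonucleoproteins (snoRNPs) guide the methylation and pseudouridylation of this precursor, and separate sets of assembly factors then cut and fold it into the small (40S) and the large (60S) subunit. Myc is known to raise the transcription of many of these genes, and in the gut the pathway is known to be most active in the dividing cells of the crypt.

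The RNA came from small intestinal organoids, which are epithelial cultures grown in a gel (here in IntestiCult medium) from intestinal cells of mice 4 to 8 weeks old. There were 4 groups with 2 libraries each: organoids given 6 Gy of X-rays (IR) at day 7, untreated controls at day 7, IR organoids at day 4 and controls at day 4. Every group, controls included, was of strain C57BL/6 and homozygous for a pair of transgenes: Rosa26-rtTA Tg/Tg, the doxycycline-dependent activator, and its target Col1A1-TetO-OSKM Tg/Tg, which encodes Oct4, Sox2, Klf4 and Myc. The labels do not say that the transgene was switched on, from when the days were counted, or whether the replicates were separate cultures or mice, so the p-values measure only the spread between these libraries. Pou5f1 (Oct4) had 4 counts and Sox2 had 1 count over all 8 libraries, while Klf4 had 1962 and Myc 4321. The tables hold 1 entry for Myc, in which reads of the gene and of the transgene cannot be told apart.

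Expected counts summed to between 7541764 and 16054269 per library. Replicates of day 7 were the closer ones, with biological coefficients of variation of 0.041 for IR and 0.047 for control, against 0.17 for IR and 0.14 for control at day 4. Replicate 2 of IR day 4 stood apart from the other libraries. Mitochondrial transcripts took 27.6% of its counts, against 12.9% to 20.7% in the other 7 libraries. All 39 genes were lower in it than in replicate 1 of IR day 4 (median log2 difference -0.32), as were 52.3% of all genes tested (median -0.019). Between the controls of day 4, 31 of the 39 genes were lower in replicate 2 (median -0.12), against 49.0% of all genes tested. The organoids carried the epithelial markers Epcam, Cdh1, Krt8, Krt18, Krt19, Vil1 and Cdx2. Immune, mesenchymal and endothelial markers summed to at most 10.1, 20.3 and 5.33 CPM (counts scaled to library size by TMM) in any library, and Cdh5, Kdr and Adgre1 had no count.

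The cell types of the epithelium differed between the groups. Enterocyte markers summed to 12442 and 20098 CPM in IR libraries of day 4, against 3955 and 3618 CPM in controls of day 4. The 15 mitosis genes summed to 1553 and 1259 CPM in IR libraries of day 4, against 2794 and 2618 CPM in controls of day 4, and to 2230.2 and 2207 CPM in IR libraries of day 7, against 2521 and 2478 CPM in controls of day 7. In such bulk samples fewer cells of a type and less RNA per cell cannot be told apart.

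Myc and its partner Max bind the E-box, whose best-known form is CACGTG, and these letters were searched in the promoters as a description of the set. The promoter window ran from 250 bases before to 50 bases after the gene's start in RefSeq (build GRCm38.p6), and 32 of the 39 genes had an entry. The 7 others were Myc, Npm1, Tcof1, Fbl, Rrp12, Bop1 and Rrs1. CACGTG reads the same on both strands and occurred in 6 of the 32 windows (18.8%), in 8.09% of the windows of 27025 gene symbols and in 11.8% of those of 9990 tested genes with an entry. The 6 stretches of 30 bases around the match follow 5′ to 3′ in the direction of the gene, with the match in capitals.
Nop2: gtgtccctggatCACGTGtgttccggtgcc
Pes1: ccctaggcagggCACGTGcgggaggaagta
Pno1: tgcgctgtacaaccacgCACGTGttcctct
Mybbp1a: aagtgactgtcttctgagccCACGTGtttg
Nle1: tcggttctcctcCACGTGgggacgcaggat
Wdr43: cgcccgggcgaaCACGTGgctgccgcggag
They lie at chr6:125131811-125131840 (plus strand) for Nop2, chr11:3963965-3963994 (plus strand) for Pes1, chr11:17211540-17211569 (minus strand) for Pno1, chr11:72441347-72441376 (plus strand) for Mybbp1a, chr11:82908355-82908384 (minus strand) for Nle1 and chr17:71616220-71616249 (plus strand) for Wdr43. In Nop2, a methyltransferase of the large subunit's RNA, the match began 60 bases before the start, and in the other 5 genes it began after the start. How these 6 genes moved is given with the comparisons.

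Levels within the set were compared in TPM, which are scaled for transcript length, as means over all 8 libraries. Npm1 and Ncl, which encode the abundant nucleolar phosphoproteins nucleophosmin and nucleolin, stood far above the rest with 1545 and 534 TPM. The box C/D snoRNP core, which methylates ribosomal RNA, followed with 280.1 TPM for Nop58, 252 TPM for Nop56 and 119 TPM for Fbl, the methyltransferase itself. Among the 4 proteins of the box H/ACA snoRNP core, Dkc1, the pseudouridine synthase, had 94.8 TPM, Nhp2 68.0 TPM, Gar1 61.7 TPM and Nop10 34.0 TPM. The 3 subunits of the PeBoW complex, which matures the large subunit's RNA, were also unequal, with 68.5 TPM for Pes1, 29.7 TPM for Bop1 and 23.6 TPM for Wdr12. RNA polymerase I was represented by Polr1a (31.9 TPM), Polr1b (29.1 TPM) and Polr1e (15.7 TPM). Bysl, a factor of the small subunit, was the lowest of the 39 with 7.01 TPM, and Myc stood at rank 20 with 34.7 TPM.

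Summed over the 38 genes other than Myc, TMM-scaled levels were 5523 and 5437 CPM in IR libraries of day 7, 5628 and 5558 CPM in controls of day 7, 4609 and 3675 CPM in IR libraries of day 4 and 5661 and 5068 CPM in controls of day 4. The IR libraries of day 4 were the 2 lowest, and replicate 2 was the lower of them. Npm1 and Ncl made up between 45.4% and 49.9% of this sum in each library. Gene by gene, both IR libraries of day 4 lay below the other 6 libraries for 21 of 39, against 17.6% of all genes tested. IR day 4 had the lowest group mean for 32 of the 39 genes, a count without a share of all genes beside it.

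**Figure D1:**
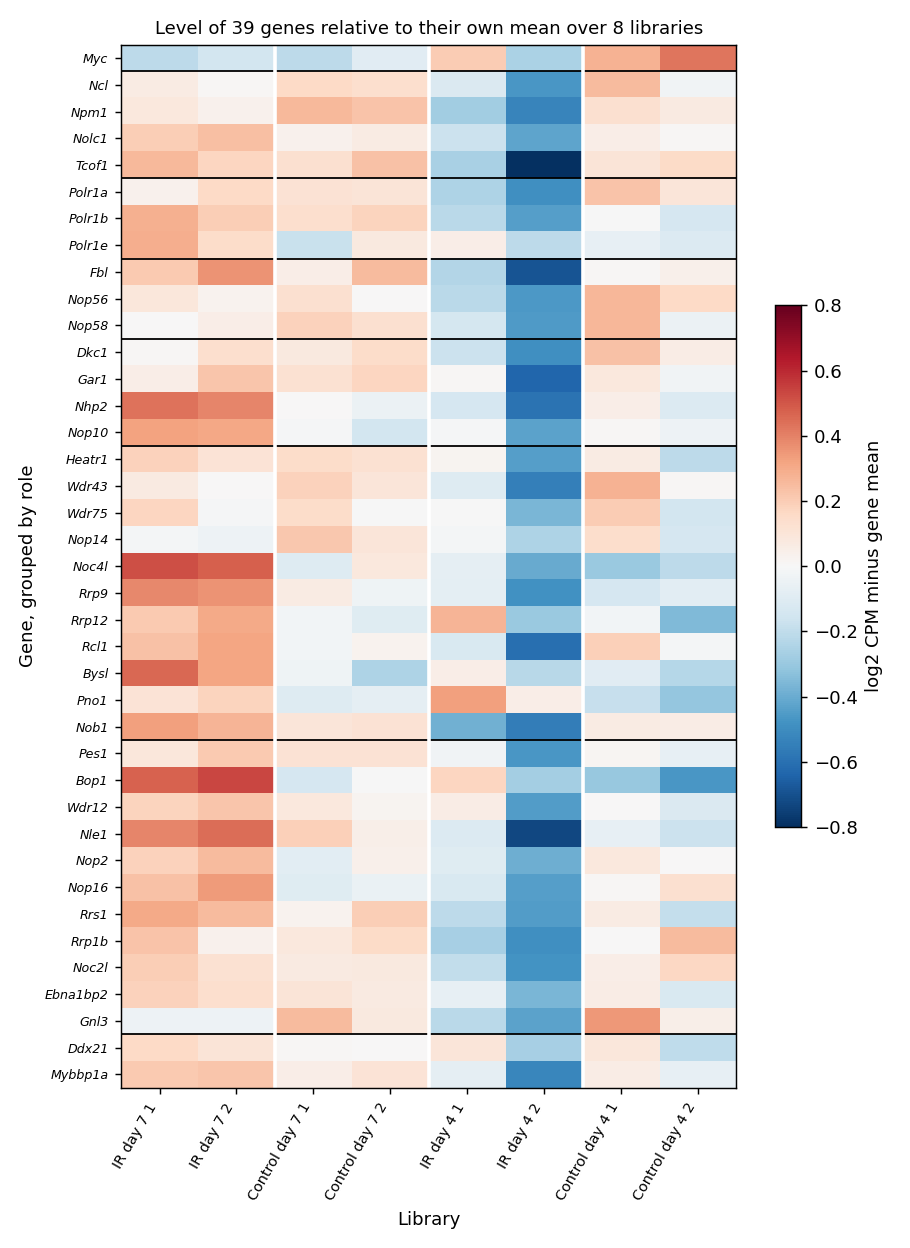
Level of each of the 39 genes (rows, grouped by role) in each of the 8 libraries (columns, with the replicate number last), as log2 CPM minus the gene's mean over the 8 libraries. The column of IR day 4 replicate 2 is blue for all genes but Pno1, and Bop1, Nhp2, Noc4l and Nle1 are among the reddest in both IR libraries of day 7.

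Myc itself was measured at 41.9 and 43.9 CPM in IR libraries of day 7, 42.0 and 45.5 CPM in controls of day 7, 56.0 and 40.7 CPM in IR libraries of day 4 and 58.9 and 65.4 CPM in controls of day 4. The controls of day 4 were the highest pair, IR replicate 1 of day 4 lay just under them, and the other 5 libraries lay between 40.7 and 45.5 CPM. With all 8 libraries and the count filter Myc passed the threshold in none of the 5 comparisons. IR against control at day 4 gave a log2 fold change of -0.36 ± 0.14 (SE), adjusted p = 0.0637, and its groups did not overlap. Without 1 library of day 4 the log2 value was -0.63 (IR replicate 1), -0.15 (IR replicate 2), -0.46 (control replicate 1) or -0.29 (control replicate 2). Whether it passed the threshold depended on the library left out. At day 7 the effect of IR was -0.029 ± 0.14 (SE), adjusted p = 0.927, with a 95% interval of -0.35 to 0.29. Day 7 against day 4 gave -0.51 ± 0.14 (SE), adjusted p = 0.0858 in controls and -0.17 ± 0.14 (SE), adjusted p = 0.383 in IR organoids. Whether either of these passed also depended on the library left out. In controls the log2 value lay between -0.58 (without control day 4 replicate 1) and -0.43 (without control day 4 replicate 2). Myc was called lower in controls with no filter and in a fit of the controls alone. In IR organoids the value was -0.38 without IR day 4 replicate 2 and 0.082 without IR day 4 replicate 1. The difference between its IR effects moved as well, with 0.59 without IR day 4 replicate 1 and 0.13 without IR day 4 replicate 2.

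**Figure D2:**
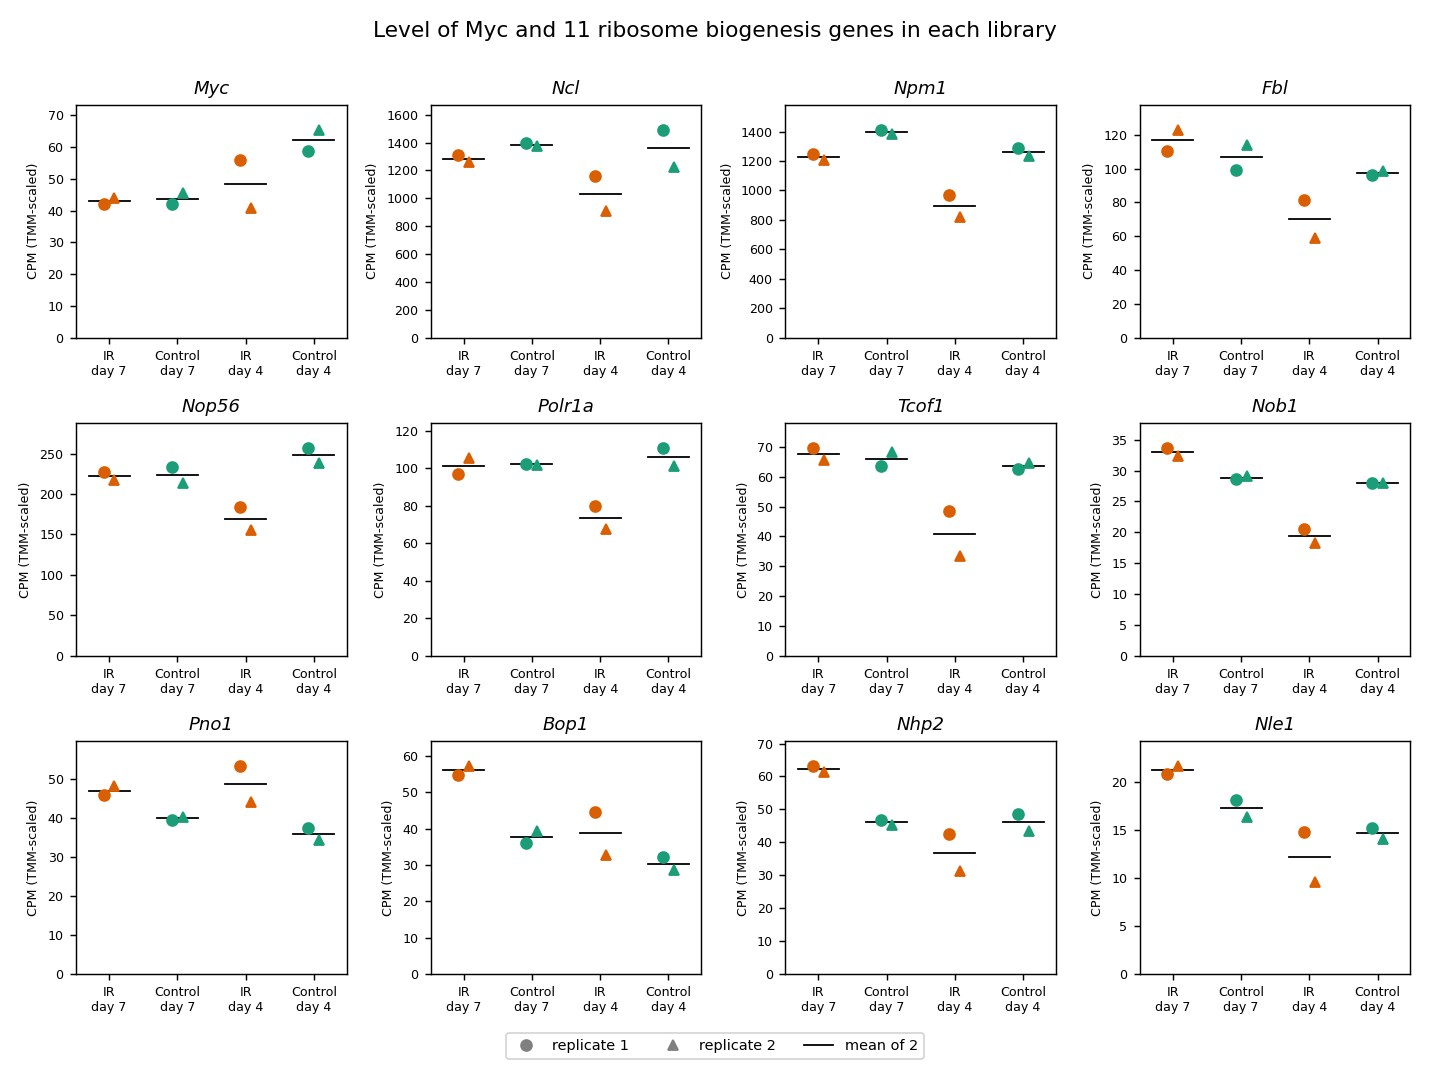
TMM-scaled level (CPM, linear axis from 0) of Myc and 11 ribosome biogenesis genes in each library of the 4 groups, with circles for replicate 1, triangles for replicate 2 and a line for their mean. Both IR libraries of day 4 are the lowest for Npm1, Fbl, Nop56, Polr1a, Tcof1 and Nob1, while Pno1 is higher in IR than in control at both times and Bop1 is highest in IR at day 7.

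Irradiated organoids were set against controls at day 4 to see what 6 Gy changed at the earlier time. Of the 39 genes 14 fell and 1 rose (edgeR quasi-likelihood test, Benjamini-Hochberg adjusted p under 0.05, here "called"), where 16.5% of all genes tested were called lower and 20.0% higher. The falls were modest, the largest being 1.55-fold. The median log2 fold change of the set was -0.28, against 0.0029 for all genes tested, and 33 of the 39 values were below 0. In 22 genes both IR libraries lay below both controls and in 2 genes above them, against 31.8% and 33.4% of all genes tested. In the same comparison 14 of 15 mitosis genes fell, 4 of 6 crypt base stem cell markers fell, and all 12 enterocyte and all 7 Paneth cell markers rose. All 5 tuft cell markers fell, goblet cell markers were mixed (3 rose and 2 fell of 7), and 1 of 6 enteroendocrine markers rose. The part of these shifts in the changes of the 39 genes was not tested.

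All 4 nucleolar phosphoproteins fell at day 4. Npm1, whose product chaperones ribosomal proteins and histones, had 969.6 and 817 CPM in IR libraries of day 4, against 1289 and 1237 CPM in control libraries of day 4. Its groups were well apart, with a log2 fold change of -0.50 ± 0.10 (SE), adjusted p = 0.00347. Ncl, whose product binds the early precursor RNA, had 1157 and 906 CPM in IR libraries of day 4, against 1491 and 1228 CPM in control libraries of day 4. Both IR libraries lay below both controls, but replicate 1 of IR lay only a little below replicate 2 of the controls (-0.40 ± 0.13 (SE), adjusted p = 0.0358). The call of Ncl was lost without any 1 of 6 of the libraries, with a highest adjusted p of 0.145 without control day 4 replicate 1. Tcof1, which encodes treacle, a cofactor of RNA polymerase I, had 48.5 and 33.4 CPM in IR libraries of day 4, against 62.5 and 64.6 CPM in control libraries of day 4. That was the deepest fall of the set (-0.63 ± 0.15 (SE), adjusted p = 0.00788), and IR replicate 2 lay furthest down. Nolc1, a chaperone of snoRNPs, had 118 and 99.2 CPM in IR libraries of day 4, against 138 and 133 CPM in control libraries of day 4. The IR libraries were both lower (-0.32 ± 0.09 (SE), adjusted p = 0.0181), and without IR day 4 replicate 2 the adjusted p was 0.0626.

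Of the 3 subunits of RNA polymerase I, the catalytic Polr1a fell. It had 79.9 and 67.5 CPM in IR libraries of day 4, against 111 and 101 CPM in control libraries of day 4 (-0.52 ± 0.10 (SE), adjusted p = 0.00243), and the groups did not overlap. Polr1e, a subunit whose yeast relative aids initiation and elongation, had 14.0 and 11.6 CPM in IR libraries of day 4, against 12.9 and 12.5 CPM in control libraries of day 4. Its libraries were intermingled, and the log2 fold change was 0.016 ± 0.16 (SE), adjusted p = 0.949. Polr1b, the second-largest subunit, had -0.26 with an adjusted p of 0.0654. All 3 proteins of the box C/D snoRNP core fell. Nop56, a scaffold of that particle, had 184 and 155 CPM in IR libraries of day 4, against 257 and 239 CPM in control libraries of day 4. The pairs were clearly separate (-0.55 ± 0.10 (SE), adjusted p = 0.00171). Nop58, its partner scaffold, had 168 and 136 CPM in IR libraries of day 4, against 223 and 179.9 CPM in control libraries of day 4. Here IR replicate 1 lay just below control replicate 2 (-0.41 ± 0.12 (SE), adjusted p = 0.0267), and the adjusted p was 0.116 without IR day 4 replicate 2 and also above 0.05 without control replicate 1. Fbl had 81.4 and 59.1 CPM in IR libraries of day 4, against 96.0 and 98.4 CPM in control libraries of day 4. Both IR libraries were lower, replicate 2 by far (-0.47 ± 0.14 (SE), adjusted p = 0.0262). The call of Fbl was lost without either control of day 4 or without IR replicate 2, with adjusted p-values of up to 0.113. In the box H/ACA core 1 of 4 fell, Dkc1 (-0.47 ± 0.11 (SE), adjusted p = 0.00839), and the other 3 had values between -0.32 and -0.18.

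Of the 11 factors of the small subunit 2 fell (18.2%, near the 16.5% of all genes tested) and 1 rose (9.09%, against 20.0%). Nob1, the endonuclease that makes the final cut in the small subunit's RNA, had 20.5 and 18.3 CPM in IR libraries of day 4, against 28.0 and 27.9 CPM in control libraries of day 4. Its replicates were close and its groups far apart (-0.53 ± 0.11 (SE), adjusted p = 0.00512). Pno1, which binds next to that cut and works with Nob1, went the other way with 53.3 and 44.0 CPM in IR libraries of day 4, against 37.3 and 34.3 CPM in control libraries of day 4. Both IR libraries were higher (0.45 ± 0.11 (SE), adjusted p = 0.0122). That call was lost without IR day 4 replicate 1, where the adjusted p was 0.0739, and without control replicate 2. Wdr43, an early component of the small subunit processome, fell by 0.46 on the log2 scale (adjusted p = 0.0325), and its adjusted p reached 0.132 without control day 4 replicate 1 and was also above 0.05 without IR replicate 2. The other 8 (Heatr1, Wdr75, Nop14, Noc4l, Rrp9, Rrp12, Rcl1 and Bysl) ranged between -0.43 for Rcl1 and 0.20 for Rrp12.

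Among the 11 factors of the large subunit 3 fell (27.3%, against 16.5% of all genes tested). Gnl3, which encodes nucleostemin, a GTP-binding protein of stem and dividing cells, had 106 and 91.6 CPM in IR libraries of day 4, against 157 and 128 CPM in control libraries of day 4. The groups did not overlap (-0.52 ± 0.11 (SE), adjusted p = 0.00558). Rrp1b and Noc2l, nucleolar proteins of the large subunit's assembly, fell by 0.51 and 0.44 on the log2 scale (adjusted p = 0.0104 and 0.00617), and Rrp1b had an adjusted p of 0.0717 without control day 4 replicate 2. Bop1 had the only positive value of this group, 0.35 with an adjusted p of 0.0805, while its PeBoW partners Pes1 and Wdr12 had -0.21 and -0.11. Ddx21, a helicase of the nucleolus, had 224 and 174 CPM in IR libraries of day 4, against 223 and 182 CPM in control libraries of day 4. The libraries of its groups were intermingled (-0.022 ± 0.13 (SE), adjusted p = 0.91). Mybbp1a, a repressor of ribosomal DNA transcription, had -0.28 (adjusted p = 0.113). Of the 6 genes with CACGTG in the promoter window 1 was called lower, against 10 of the 26 without it.

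The depth of the fall and the number of calls rested on single libraries and on the settings. Of the 15 calls, 5 held under all the other settings, which left out no single library. The median of the set was -0.14 without IR day 4 replicate 2 (all genes 0.0059) and -0.52 without IR day 4 replicate 1 (all genes -0.022). In all, 8 of the 15 calls held in all 8 runs that each left out 1 library, namely Npm1, Tcof1, Polr1a, Nop56, Dkc1, Nob1, Noc2l and Gnl3.

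**Figure D3:**
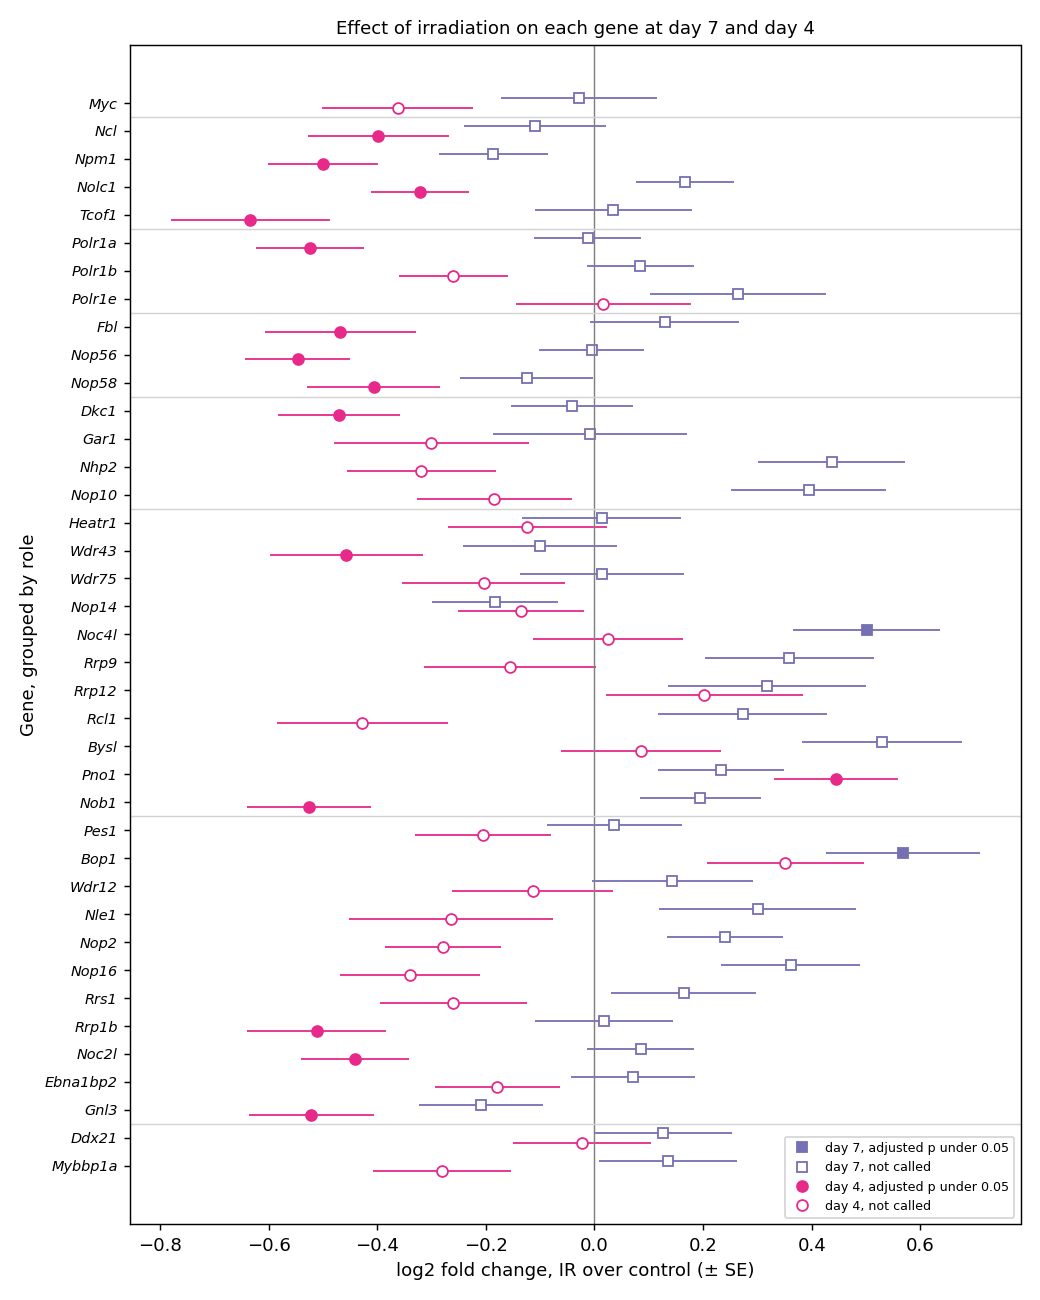
Effect of IR on each of the 39 genes, as log2 fold change of IR over control with its standard error, at day 7 (squares) and day 4 (circles), and filled where the adjusted p was under 0.05. At day 4, 33 of the 39 values lie below 0, and at day 7, 28 of the 39 lie above 0.

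At day 7 the same comparison gave 2 genes that rose, Bop1 and Noc4l. They are 5.13% of the 39, near the 4.70% of all genes tested that were called higher (8.65% in either direction). None fell in the fit of all 8 libraries, where 3.95% of all genes were called lower. At an unadjusted p under 0.05, 0 genes were lower, and DESeq2 and limma-voom also called 0 lower. A fit of the 4 libraries of day 7 alone called 5 of the 39 lower and 15 higher. The share of all genes called in that fit is not given here, so these counts are not set against it. With all 8 libraries the median log2 fold change of the set was 0.13, against 0.0011 for all genes tested, and 28 of the 39 values were above 0. Both IR libraries lay above both controls in 22 genes, against 33.3% of all genes tested, and below them in 6, against 32.6%. In the same comparison 4 of 12 enterocyte markers were higher (summed 5091 and 5086 CPM in IR libraries of day 7, against 3297 and 3275 CPM in controls of day 7). Of the 6 crypt base stem cell markers 3 were lower (summed 2026 and 1998 CPM in IR libraries of day 7, against 3096 and 3046 CPM in controls of day 7), as were 2 of 15 mitosis genes, and goblet cell markers were split, with 2 of 7 higher and 2 lower. Of the 6 enteroendocrine markers 1 was higher and 1 lower, and none of the 7 Paneth cell and 5 tuft cell markers was called. The part of these markers in the result was not tested.

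Bop1, which holds Pes1 and Wdr12 together in PeBoW, had 54.8 and 57.3 CPM in IR libraries of day 7, against 36.1 and 39.4 CPM in control libraries of day 7. Both IR libraries were well above both controls (0.57 ± 0.14 (SE), adjusted p = 0.0371). Noc4l, which acts with Nop14 in the small subunit processome, had 36.6 and 35.7 CPM in IR libraries of day 7, against 23.8 and 27.2 CPM in control libraries of day 7. Its pairs did not overlap either (0.50 ± 0.14 (SE), adjusted p = 0.0465). Nop14, its partner, lay the other way with -0.18 (adjusted p = 0.362), and the PeBoW subunits Pes1 and Wdr12 had 0.036 and 0.14. Both calls were lost without any 1 of the 4 libraries of day 7, and then only 73 to 133 of all genes tested were called higher, against 661 with all libraries. With the replicate number as a block the adjusted p of Noc4l was 0.054.

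None of the 14 genes that fell at day 4 passed the test at day 7 in the fit of all 8 libraries. That fit takes its spread from both days, and the replicates of day 4 were further apart. The fit of day 7 alone, which called 5 of the 39 lower, is not read gene by gene here. Tcof1, the deepest fall of day 4, had 69.7 and 65.6 CPM in IR libraries of day 7, against 63.6 and 68.5 CPM in control libraries of day 7, with overlapping ranges (0.035 ± 0.14 (SE), adjusted p = 0.913). Gnl3 had 119.8 and 120.1 CPM in IR libraries of day 7, against 147 and 130.5 CPM in control libraries of day 7, lower in both IR libraries and the most negative value of the 39 (-0.21 ± 0.11 (SE), adjusted p = 0.284). Rrp1b had a log2 fold change of 0.017 (adjusted p = 0.954), and Nob1, whose values are given with the difference of effects, had 0.19 (adjusted p = 0.307). Npm1 had 1248 and 1207 CPM in IR libraries of day 7, against 1412 and 1382 CPM in control libraries of day 7 (-0.19 ± 0.10 (SE), adjusted p = 0.277). Ncl had 1309.6 and 1259.7 CPM in IR libraries of day 7, against 1398 and 1374 CPM in control libraries of day 7 (-0.11 ± 0.13 (SE), adjusted p = 0.647). For these 2 genes both IR libraries lay slightly below both controls. Nop58 had 186 and 193 CPM in IR libraries of day 7, against 210.4 and 202 CPM in control libraries of day 7, again a little lower in IR (-0.13 ± 0.12 (SE), adjusted p = 0.57). Wdr43 was also lower in both, with 128 and 122 CPM in IR libraries of day 7, against 138 and 130 CPM in controls of day 7. Polr1a had 97.2 and 106 CPM in IR libraries of day 7, against 103 and 102 CPM in control libraries of day 7, with IR on either side of the controls (-0.013 ± 0.10 (SE), adjusted p = 0.955). Nop56 had 228 and 218 CPM in IR libraries of day 7, against 233 and 214 CPM in control libraries of day 7, and its libraries were intermingled (-0.0051 ± 0.10 (SE), adjusted p = 0.982, 95% interval -0.22 to 0.21). Fbl had 111 and 123 CPM in IR libraries of day 7, against 99.2 and 114 CPM in control libraries of day 7, where the ranges overlapped (0.13 ± 0.14 (SE), adjusted p = 0.604). The smallest change after Nop56 was that of Gar1, a box H/ACA protein, with 26.8 and 30.2 CPM in IR libraries of day 7, against 28.1 and 29.2 CPM in control libraries of day 7 (-0.0083 ± 0.18 (SE), adjusted p = 0.984, 95% interval -0.41 to 0.39). The interval of Gar1 includes its own day 4 value of -0.30. Besides Bop1 and Noc4l, 6 genes had an unadjusted p under 0.05, all of them higher in IR: Bysl (0.53, adjusted p = 0.0518), Nhp2 (0.44, 0.0732), Nop10 (0.39, 0.114), Nop16 (0.36, 0.108), Rrp9 (0.36, 0.178) and Nop2 (0.24, 0.188).

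The difference between the IR effects, day 7 less day 4, was tested directly. In 7 of the 39 genes the effect was higher at day 7, against 4.60% of all genes tested, and in 0 it was lower, against 5.51%. The 7 were Nhp2, Nob1, Nop16, Nop56, Noc2l, Polr1a and Nolc1. Another 12 were higher at an unadjusted p under 0.05 and 0 were lower, and DESeq2 and limma-voom also called 0 lower. The median over the set was 0.42, against -0.037 for all genes tested, and 37 of the 39 values were above 0. In the same test 12 of 15 mitosis genes, 1 of 6 crypt base stem cell markers and 1 of 5 tuft cell markers were higher, and 7 of 12 enterocyte, 4 of 7 Paneth cell and 1 of 7 goblet cell markers were lower. Their part in the difference was not tested.

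Nhp2, of the box H/ACA core, had the widest gap of the 7. It had 63.2 and 61.4 CPM in IR libraries of day 7, against 46.8 and 45.2 CPM in control libraries of day 7, and 42.6 and 31.1 CPM in IR libraries of day 4, against 48.7 and 43.5 CPM in control libraries of day 4. The IR libraries were the highest pair at day 7 and the lowest pair at day 4 (0.76 ± 0.19 (SE), adjusted p = 0.0352). Nob1 showed the same order with 33.7 and 32.4 CPM in IR libraries of day 7, against 28.7 and 29.1 CPM in control libraries of day 7, beside the lower IR values of day 4 given above (0.72 ± 0.16 (SE), adjusted p = 0.0209). Nop16, a factor of the large subunit, had 36.2 and 39.1 CPM in IR libraries of day 7, against 28.9 and 29.7 CPM in control libraries of day 7, and 28.4 and 22.8 CPM in IR libraries of day 4, against 31.0 and 33.6 CPM in control libraries of day 4. Its IR libraries, too, lay above the controls at day 7 and below them at day 4 (0.70 ± 0.18 (SE), adjusted p = 0.0365).

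Noc2l had 114 and 108 CPM in IR libraries of day 7, against 105 and 105 CPM in control libraries of day 7, and 86.9 and 71.6 CPM in IR libraries of day 4, against 103 and 112 CPM in control libraries of day 4. IR was just above control at day 7 and well below it at day 4 (0.53 ± 0.14 (SE), adjusted p = 0.0406). Nolc1 had 152 and 157 CPM in IR libraries of day 7, against 136 and 139 CPM in control libraries of day 7, with IR the higher pair (0.49 ± 0.13 (SE), adjusted p = 0.0376). Nop56 and Polr1a, whose values stand above, were near their controls at day 7 and lower at day 4 (0.54 ± 0.14 (SE), adjusted p = 0.034 for Nop56 and 0.51 ± 0.14 (SE), adjusted p = 0.045 for Polr1a). Npm1 (0.31), Ncl (0.29), Fbl (0.60), Nop58 (0.28) and Myc (0.33) had positive values with adjusted p-values between 0.0833 and 0.342. All 7 calls were lost without any 1 library of day 7. The median over the set was 0.60 without IR day 4 replicate 1 (all genes -0.025) and 0.24 without IR day 4 replicate 2 (all genes -0.030).

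Within the irradiated organoids 25 of the 39 genes were higher at day 7 than at day 4 and 0 were lower, where 14.7% of all genes tested were called higher and 18.3% lower. No gene was lower at an unadjusted p under 0.05, nor by DESeq2 or limma-voom. The median log2 fold change was 0.46, against -0.035 for all genes tested, and in 34 genes both libraries of day 7 lay above both of day 4, against 32.6% of all genes. In the same comparison all 15 mitosis genes and all 6 crypt base stem cell markers rose, and all 12 enterocyte, all 7 Paneth cell, all 6 enteroendocrine and 5 of 7 goblet cell markers fell, and 1 of 5 tuft cell markers rose. Their part in this result was not tested. This comparison and that at day 4 share the IR libraries of day 4.

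The factors of the large subunit were called higher in 9 of 11 cases (81.8%, against 14.7% of all genes tested). Nle1, which helps to release assembly factors from the large subunit, had 20.8 and 21.7 CPM in IR libraries of day 7, against 14.7 and 9.58 CPM in IR libraries of day 4. The pairs did not overlap, replicate 2 of day 4 was the lowest (0.80 ± 0.19 (SE), adjusted p = 0.00942), and without IR day 7 replicate 2 the adjusted p was 0.0538. Bop1 (0.53), Pes1 (0.38), Nop2 (0.46), Nop16 (0.56), Rrs1 (0.60), Rrp1b (0.51), Noc2l (0.49) and Ebna1bp2 (0.37) rose as well. Wdr12 had 0.37 and Gnl3 0.28, with adjusted p-values of 0.0836 and 0.0917.

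In the small subunit 5 of 11 rose (45.5%, against 14.7% of all genes tested). Nob1 had 33.7 and 32.4 CPM in IR libraries of day 7, against 20.5 and 18.3 CPM in IR libraries of day 4. Both of its pairs were tight and far apart (0.77 ± 0.12 (SE), adjusted p = 0.00107). Noc4l had 36.6 and 35.7 CPM in IR libraries of day 7, against 24.4 and 19.4 CPM in IR libraries of day 4, also without overlap (0.72 ± 0.14 (SE), adjusted p = 0.00338). Rrp9, a protein of the U3 snoRNP, Rcl1, a factor of early cleavage, and Bysl rose by 0.64, 0.61 and 0.47 on the log2 scale. Pno1, the gene that had risen at day 4, had -0.052 (adjusted p = 0.762).

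Fbl had 111 and 123 CPM in IR libraries of day 7, against 81.4 and 59.1 CPM in IR libraries of day 4, and day 7 was higher throughout (0.73 ± 0.14 (SE), adjusted p = 0.00432). Nhp2 had 63.2 and 61.4 CPM in IR libraries of day 7, against 42.6 and 31.1 CPM in IR libraries of day 4, likewise apart (0.76 ± 0.14 (SE), adjusted p = 0.00273). Nop58 had 186 and 193 CPM in IR libraries of day 7, against 168 and 136 CPM in IR libraries of day 4, with no overlap but an adjusted p above 0.05 (0.32 ± 0.12 (SE), adjusted p = 0.0743). Npm1 had 1248 and 1207 CPM in IR libraries of day 7, against 969.6 and 817 CPM in IR libraries of day 4, higher at day 7 in both (0.46 ± 0.10 (SE), adjusted p = 0.00704). The call for Polr1a was also higher, with 97.2 and 106 CPM in IR libraries of day 7, against 79.9 and 67.5 CPM in IR libraries of day 4 (0.46 ± 0.10 (SE), adjusted p = 0.0067). Ncl had 1309.6 and 1259.7 CPM in IR libraries of day 7, against 1157 and 906 CPM in IR libraries of day 4. Its pairs were apart, yet it was not called (0.32 ± 0.13 (SE), adjusted p = 0.0871). Tcof1 (0.72), Nolc1 (0.51), Polr1b (0.57), Nop56 (0.39), Dkc1 (0.39), Nop10 (0.52) and Mybbp1a (0.50) completed the 25. Of the 6 genes with CACGTG in the promoter window 4 were called higher, as were 16 of the 26 without it.

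The median of the set was 0.32 without IR day 4 replicate 2 (all genes -0.019) and 0.62 without IR day 4 replicate 1 (all genes -0.025). It was 0.50 and 0.47 without IR day 7 replicate 1 and replicate 2 (all genes -0.012 and -0.013). Of the 25 calls, 11 held in all 8 runs that each left out 1 library: Npm1, Nolc1, Tcof1, Polr1a, Polr1b, Fbl, Nhp2, Noc4l, Nob1, Rrs1 and Noc2l.

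In control organoids, compared over the same days, edgeR called 0 of the 39 genes, where 1.25% of all genes tested were called higher and 1.46% lower (2.72% in all); 2 had an unadjusted p under 0.05, Polr1b higher and Myc lower, and DESeq2 and limma-voom called 0. The median was 0.049, against -0.00052 for all genes. Ncl had 1398 and 1374 CPM in control libraries of day 7, against 1491 and 1228 CPM in control libraries of day 4, where replicate 1 of day 4 was above and replicate 2 below both of day 7 (0.028 ± 0.13 (SE), adjusted p = 0.937). Npm1 had 1412 and 1382 CPM in control libraries of day 7, against 1289 and 1237 CPM in control libraries of day 4, a little higher at day 7 (0.15 ± 0.10 (SE), adjusted p = 0.491). Fbl had 99.2 and 114 CPM in control libraries of day 7, against 96.0 and 98.4 CPM in control libraries of day 4, with day 7 only just above (0.13 ± 0.14 (SE), adjusted p = 0.663). Nop58 had 210.4 and 202 CPM in control libraries of day 7, against 223 and 179.9 CPM in control libraries of day 4, inside the range of day 4 (0.035 ± 0.12 (SE), adjusted p = 0.912). Polr1a had 103 and 102 CPM in control libraries of day 7, against 111 and 101 CPM in control libraries of day 4, again inside it (-0.051 ± 0.10 (SE), adjusted p = 0.83).

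Over the comparisons, 10 genes fell at day 4 after IR and were higher at day 7 than at day 4 in IR organoids: Npm1, Nolc1, Tcof1, Polr1a, Fbl, Nop56, Dkc1, Nob1, Rrp1b and Noc2l. Ncl, Nop58, Wdr43 and Gnl3 (4 genes) fell at day 4 and were not called in the later rise. A further 15 were called in that rise and not at day 4, Bop1 and Noc4l also at day 7, and Pno1 was called at day 4 alone. Both comparisons use the IR libraries of day 4, so these calls are not independent. The share of all genes tested with the same combinations of calls is not given here. These counts are therefore no measure of the set against all genes. Besides Myc, the genes called in no comparison were Polr1e, Gar1, Heatr1, Wdr75, Nop14, Rrp12, Wdr12 and Ddx21.

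**Figure D4:**
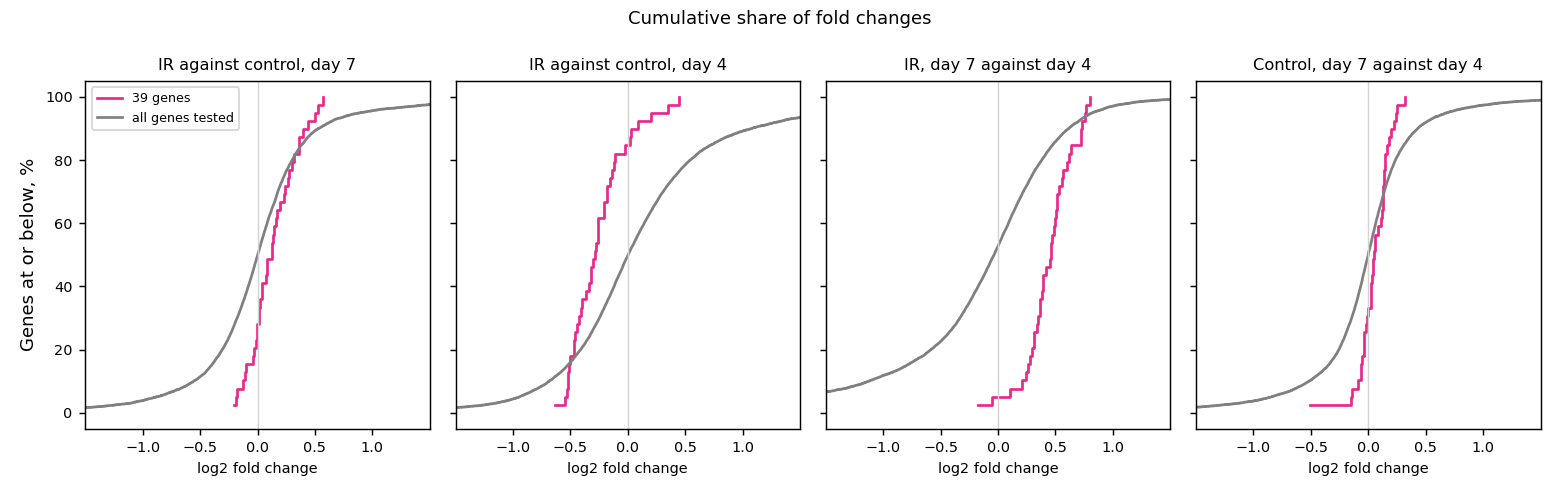
Cumulative share of genes (vertical axis, %) at or below each log2 fold change (horizontal axis, drawn between -1.5 and 1.5) for the 39 genes and for all 14063 genes tested, in 4 comparisons. Over most of its length the curve of the 39 genes lies left of that of all genes at day 4 (median -0.28) and right of it for day 7 against day 4 in IR organoids (median 0.46).

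The rest of the pathway was read from lists of 169 further genes of ribosome assembly, of which 154 passed the count filter. At day 4 after IR 33 of the 154 fell (21.4%, against 16.5% of all genes tested) and 5 rose, with a median of -0.17. Within IR organoids 53 were higher at day 7 than at day 4 (34.4%, against 14.7%) and 3 lower, with a median of 0.26. At day 7, 2 were higher and 1 lower in IR than in control, and in control organoids 0 changed between the days (edgeR, 7 at an unadjusted p under 0.05). The counts depended on single libraries: 13 fell at day 4 without IR day 4 replicate 2 and 59 without replicate 1, and over time 26 rose without IR day 4 replicate 2, 24 without IR day 7 replicate 1 and 21 without IR day 7 replicate 2. Without either control of day 4, 22 fell at day 4. By DESeq2 16 fell and 4 rose at day 4, and 30 were higher and 2 lower at day 7 within IR.

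Other factors of RNA polymerase I transcription fell in 3 of 17 cases at day 4 (17.6%, near the 16.5% of all genes tested): Taf1d and Taf1a of the selectivity factor (-0.40 and -0.59) and the subunit Polr1c (-0.46). Polr1c was lost without IR day 4 replicate 2 and 3 other libraries, and Taf1a without IR or control replicate 1 of day 4. Ubtf, which binds ribosomal DNA and brings RNA polymerase I to it, had -0.26 (adjusted p = 0.109) at day 4 and rose by 0.46 over time in IR organoids (adjusted p = 0.0148), together with Polr1c (0.71), Taf1c (0.67) and Polr2h (0.48). The calls of Ubtf and Taf1c over time were lost without IR day 4 replicate 2 or either IR library of day 7, that of Polr2h without IR day 4 replicate 2 or replicate 2 of either group of day 7, and that of Polr1c held.

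Of 55 other factors of the small subunit 11 fell (20.0%, against 16.5% of all genes tested) and 1 rose at day 4, and 22 rose (14.7% of all genes tested rose) and 1 fell over time in IR organoids. Dimt1, which methylates the small subunit's RNA, had 5.91 and 5.77 CPM in IR libraries of day 4, against 9.97 and 11.2 CPM in controls of day 4 (log2 fold change -0.86, adjusted p = 0.00343). Diexf (-0.65) and Esf1 (-0.49) fell too, and all 3 calls held when each library was left out. Riok3, a kinase of late small-subunit particles, was the exception with 138 and 162 CPM in IR libraries of day 4, against 97.5 and 77.0 CPM in controls of day 4 (0.78, adjusted p = 0.00062). It was also the 1 gene of the list that fell over time in IR (-0.63), while Tbl3 (0.68), Wdr46 (0.69) and Diexf (0.77) rose, and these 4 calls held too.

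Of 59 other factors of the large subunit 13 fell (22.0%, against 16.5% of all genes tested) and 4 rose (6.78%, against 20.0%) at day 4. Over time in IR organoids 17 rose (28.8%, against 14.7%) and 2 fell (3.39%, against 18.3%). Nsa2, an assembly factor of the large subunit, fell by 0.66 and Nop53, whose yeast relative brings the RNA exosome to the precursor, by 0.69 on the log2 scale (adjusted p = 0.00014 and 0.00126). Eif6, which keeps the large subunit from joining the small one too early, had 88.6 and 65.2 CPM in IR libraries of day 4, against 42.4 and 43.2 CPM in controls of day 4. Both IR libraries were far higher (0.85, adjusted p = 0.000727). Sbds, which takes part in the removal of Eif6, rose with it (0.49, adjusted p = 0.00364), and these 4 calls held when each library was left out. Eif6 was still higher in IR at day 7 (0.67, adjusted p = 0.0135), a call lost without any 1 of the libraries of day 7. Pelp1 (0.63), Ppan (0.62), Nop53 (0.71) and Nsa2 (0.40) rose over time in IR, in every run without 1 library.

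The helpers of snoRNP assembly fell in 3 of 11 cases at day 4 (27.3%, against 16.5% of all genes tested). These were Naf1 (-0.64) and Shq1 (-0.53), which help to build Dkc1 into box H/ACA particles, and Ruvbl2 (-0.55), a chaperone ATPase. Naf1 held when each library was left out, and the other 2 were lost without IR day 4 replicate 2, and Ruvbl2 also without either control of day 4. Over time in IR 5 of 11 rose (45.5%, against 14.7% of all genes tested), among them Snu13 (0.44), the protein that begins box C/D assembly, and Ruvbl1 (0.45), the partner of Ruvbl2. Snu13 held in every run without 1 library, and Ruvbl1 was lost without IR day 4 replicate 2 or either IR library of day 7. Of 12 genes of the RNA exosome and its cofactors, which trim precursor RNA, 3 fell at day 4, with Exosc2 at -0.56, Exosc8 at -0.41 and Mphosph6 at -0.42. Exosc2 kept its call in every run without 1 library, Exosc8 lost it without IR day 4 replicate 2 or control replicate 1, and Mphosph6 without replicate 2 of either group. Over time in IR Exosc2 rose by 0.58 on the log2 scale, and Exosc8 (0.45), Exosc10 (0.35) and Exosc5 (0.71) rose as well, among 5 of 12 (41.7%, against 14.7%). Of these, Exosc2 held in every run, Exosc5, Exosc8 and Exosc10 were lost without IR day 4 replicate 2 or without IR day 7 replicate 1, and Exosc5 also without IR day 7 replicate 2.

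**Figure D5:**
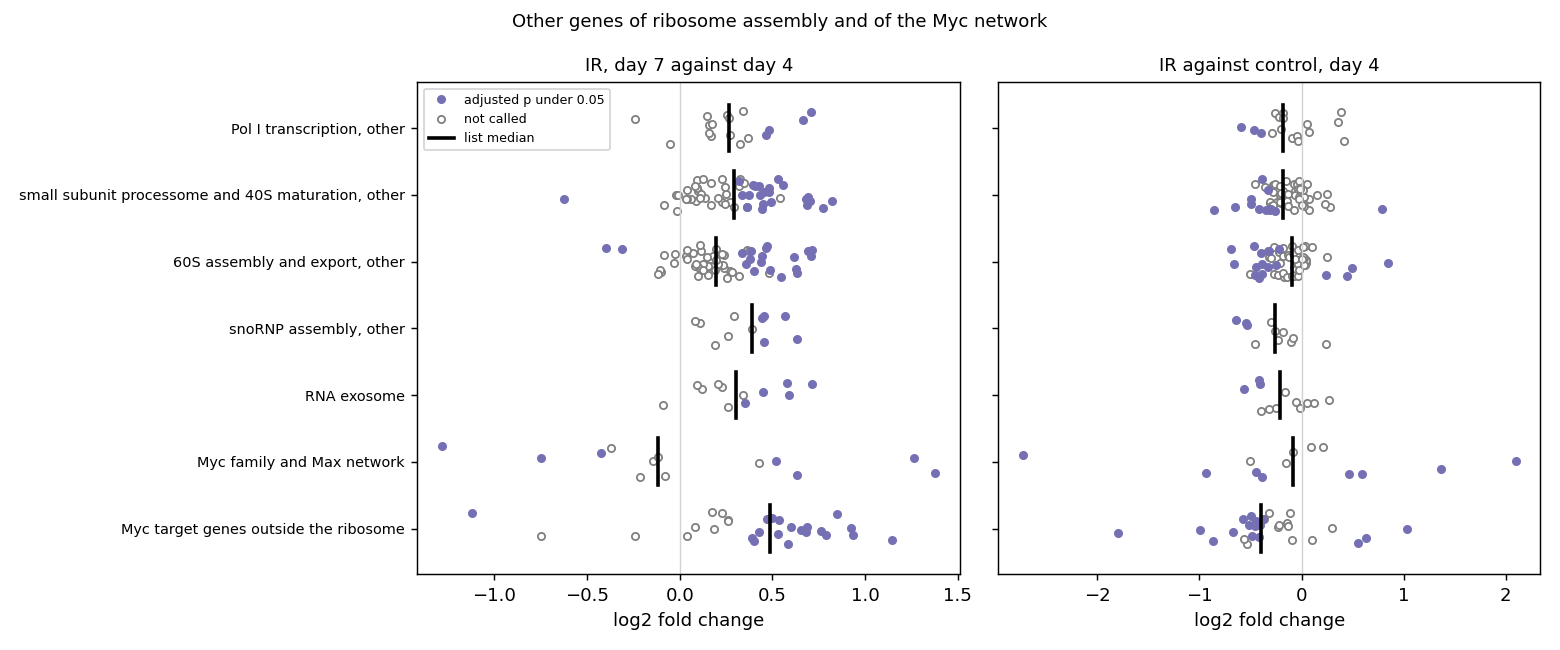
Log2 fold change (horizontal axis) of the other genes of ribosome assembly and of the Myc network and its targets, 1 point per gene and 1 row per list, for day 7 against day 4 in IR organoids (left) and for IR against control at day 4 (right), with filled points for adjusted p under 0.05 and a bar at the median. The ribosome lists have their medians above 0 on the left and below 0 on the right, and the Myc network spreads most widely on the right, from -2.73 for Mycn to 2.10 for Mxd1.

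Of Myc's relatives and the network around Max, several passed the test where Myc did not. At day 4 after IR 4 of 13 rose and 4 fell (30.8% each, against 20.0% and 16.5% of all genes tested). Mxd1, which competes with Myc for Max and represses its targets, had 29.1 and 29.5 CPM in IR libraries of day 7, 14.9 and 16.0 CPM in controls of day 7, 59.1 and 83.3 CPM in IR libraries of day 4 and 14.7 and 18.4 CPM in controls of day 4. IR was higher at both times and by far at day 4, with log2 fold changes of 2.10 at day 4 and 0.92 at day 7 (adjusted p = 2.02e-05 and 0.0153). Mxd4, of the same family, and Mlx, a partner of MondoA, rose at day 4 by 1.37 and 0.59. Mycn, a close relative of Myc, had 0.323 and 0.327 CPM in IR libraries of day 4, against 2.39 and 2.07 CPM in controls of day 4, a fall (-2.73, adjusted p = 0.00274) between low levels. These 4 calls held at day 4 when each library was left out.

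At day 7 Mlx (0.56), Mxd1 and Mxd3 (1.05) were higher in IR and Mga, which also binds Max, was lower (-0.52), and all 4 calls were lost without any 1 of the libraries of day 7. Over time in IR organoids Mycl rose by 1.38, Mlxip by 0.52 and Zbtb17, which recruits Myc to genes it represses, by 0.63, and Mxd1 fell by 1.28 on the log2 scale. The call of Zbtb17 was lost without IR day 7 replicate 2. Mycl was also higher at day 7 than at day 4 in control organoids (0.75, adjusted p = 0.0222), a call lost without any 1 of the libraries of day 7.

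At day 4 known Myc targets outside the ribosome fell in 13 of 28 cases (46.4%, against 16.5% of all genes tested). In 3 cases they rose (10.7%, against 20.0%), and the median was -0.40. The number that fell depended on the library left out. Impdh2, the rate-limiting enzyme of guanine nucleotide synthesis, had 162 and 140.1 CPM in IR libraries of day 4, against 287 and 315 CPM in controls of day 4, which is lower by far in IR (-0.995, adjusted p = 3.31e-05). Pycr1, of proline synthesis, and Slc7a5, an amino acid transporter, fell by 1.80 and 0.87 on the log2 scale. Ccnd2, which encodes cyclin D2, rose (1.03, adjusted p = 0.000206). The effect of IR was lower at day 7 than at day 4 for 1 of the 28 (3.57%, against 5.51% of all genes tested). It was higher for 11 (39.3%, against 4.60%), Impdh2 (1.01), Pycr1 (1.79) and Slc7a5 (1.10) among them. The calls of Impdh2 and Pycr1 held in every run without 1 library. The count was 20 without IR day 4 replicate 1, 7 without control day 4 replicate 2 and 2 to 3 without a library of day 7. Over time in IR organoids 18 rose (64.3%, against 14.7%) and 1 fell (3.57%, against 18.3%), with Srm, of polyamine synthesis, at 0.85 and Ccnd2 at -1.12. Srm and Slc3a2, the partner chain of Slc7a5, were the 2 genes of the list higher in IR at day 7 (0.47 and 0.47). They are 7.14% of the list, against 4.70% of all genes tested, and neither call held without any 1 library of day 7.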

How the data were processed

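RNA-seq of poly-A selected RNA gave 2 tables for 8 libraries, 1 of gene-level expected counts and 1 of TPM. The authors deposited the expected counts as estimated by RSEM, and the TPM (scaled for transcript length) beside them; the submitters' processing notes name FastQC, Trim Galore, STAR 2.7.3a, RSEM 1.3.3 and the builds GRCm39 and mm10, with no role for either build. The annotation release and the strand setting were not given in the sources used here. Gene symbols were taken by exact ID from GENCODE M21 for 52083 of 55416 IDs (3333 had none). Mpp6 was dropped from the exosome list, since that mouse symbol belongs to another gene.

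Expected counts were rounded to whole numbers (11.4% of values changed), filtered with filterByExpr (minimum count 10, total 15), scaled by TMM and fitted in edgeR 4.0.16 (R 4.3.3) with 1 mean per group over all 8 libraries and 4 residual degrees of freedom. The 14063 genes tested hold at least 99.8% of the counts of each library. The quasi-likelihood test was applied to 5 contrasts with Benjamini-Hochberg adjustment over all genes tested, and CPM are TMM-scaled. The smallest count behind any of the 39 genes' values was 88, and 1 count was worth at most 0.133 CPM. For 17 of the 39 genes, Npm1, Ncl, Fbl, Nop56, Nop58 and Polr1a among them, counts were not whole in every library (tolerance 0.001), so some of their reads were shared with other loci, and such genes are less certain. The script was tested on simulated data.

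The alternatives were DESeq2 1.42.0 as test and as size factors, limma-voom (limma 3.58.1), limma-trend on log2(TPM + 1), the same with a pseudocount of 0.1, no filter, a filter of 5 CPM in 2 libraries, no mitochondrial genes, the compared groups alone, the replicate number as a block and leaving out each library. The genes and lists were chosen with earlier results of these data known. Values in every library are given for Myc, Ncl, Npm1, Fbl and Polr1a, and for the 3 genes with the highest mean TPM. They are also given for the 5 called genes with the largest change in each direction of a comparison. The 2 with the smallest change of each IR comparison have them too. Added to these were Nolc1 and Noc2l at day 4, Nhp2 and Nop16 at both times and Tcof1, Gnl3 and Wdr43 at day 7. Of other lists up to 4 called genes with the smallest p and up to 2 not called were open to naming, and a gene so named may recur in other comparisons.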

Additional observations from a re-analysis of the deposited data

Results flagged for a closer look

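In 7 of the 39 genes the effect of IR differed between the times by the test of that difference (edgeR quasi-likelihood, Benjamini-Hochberg adjusted p under 0.05). The IR effect at day 7 less that at day 4, on the log2 scale, was 0.76 for Nhp2, 0.72 for Nob1, 0.70 for Nop16, 0.54 for Nop56, 0.53 for Noc2l, 0.51 for Polr1a and 0.49 for Nolc1. For Nop56 and Polr1a the day 7 effect was near 0, and for the other 5 both IR libraries lay above both controls at day 7 and below them at day 4. DESeq2 kept 3 of the 7 calls, limma-voom 5 and the fit with the replicate number as a block 7. Leaving out 1 library at a time kept none of the 7 in every run, since no gene of the set was called without any 1 of the 4 libraries of day 7.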

How the results depend on the processing

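With 2 libraries per group, the counts of calls depended on single libraries and, at day 7, also on which groups shared the fit. Unless stated, the counts of these other runs come without the share of all genes called in the same run, here and above. They are therefore no measure of the set against all genes. At day 4 the number of the 39 genes called lower ranged between 9 and 28 over the 8 runs without 1 library, the number called higher between 0 and 3, and the median between -0.52 and -0.14. At day 7 between 0 and 6 were called higher. For the difference of the IR effects the count lay between 0 and 26 and the median between 0.24 and 0.60. In controls over time 0 to 1 were called lower, the 1 being Myc. In IR organoids over time 13 to 35 were called higher and 0 to 1 lower, again Myc, with a median between 0.32 and 0.62. Among single genes that changed sign in such runs, the log2 values lay at day 4 between -0.23 and 0.14 for Ddx21 and between -0.14 and 0.14 for Polr1e. At day 7 they lay between -0.076 and 0.068 for Nop56, -0.052 and 0.12 for Gar1, -0.096 and 0.052 for Myc and -0.032 and 0.095 for Polr1a. In controls over time they lay between -0.12 and 0.017 for Polr1a, -0.11 and 0.18 for Ncl and -0.11 and 0.20 for Nop58, and in IR organoids between -0.38 and 0.082 for Myc. At day 4, fits of the compared groups alone or of log2(TPM + 1) or log2(TPM + 0.1) each called 8 lower and 0 higher. TPM, which no TMM factor corrects, moved the median of all genes at day 4 by -0.17 and -0.20 with the 2 pseudocounts and that of the 39 genes to -0.52 and -0.53, with 33 of the 39 still below the median of all genes. The TPM medians were 0.73 and 0.78 for the difference of effects (all genes 0.26 and 0.30) and 0.77 and 0.80 for IR organoids over time (all genes 0.30 and 0.34). At day 7 the genes called higher were 6 with no filter, 1 by DESeq2, 0 by limma-voom, 0 with TPM in both forms and 15, with 5 lower, in a fit of day 7 alone. The difference of effects was called in 18 genes with no filter, 3 by DESeq2 and 0 with TPM in both forms. In controls over time 1 gene, Myc, was called lower with no filter, as was 1, Myc again, in a fit of the controls alone. Changes of sign from near 0 were -0.029 for Polr1e at day 4 with no filter and -0.29 and -0.31 with TPM, and 0.0012 for Ddx21 with the filter of 5 CPM. At day 7 Gar1 had 0.00039 with DESeq2 size factors, 0.045 with no filter, 0.0013 by DESeq2 and 0.16 and 0.17 with TPM. Nop56 had 0.0036, 0.048, 0.0037, 0.083 and 0.083 under the same settings in that order. With no filter Myc had 0.025 and Polr1a 0.041, and with TPM Myc had 0.12 and 0.12, Polr1a 0.20 and 0.20 and Ncl 0.033 and 0.034. Myc over time in IR organoids had 0.26 and 0.27 with TPM. The cause of these changes was not tested. Same-numbered libraries correlated between -0.035 and 0.058 in their deviations from the group means, so no strong shared pattern by replicate number was seen. With 2 libraries per group this cannot show that they were unpaired by culture or mouse, which the labels do not state. With the replicate block 15 were called lower and 1 higher at day 4, 3 higher at day 7, 7 in the difference of effects and 29 higher in IR organoids over time. Over all genes named one by one, 730 values kept their direction and side of the threshold, 102 lost and 30 gained a call, and 44 changed sign.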
